A study of Rattus norvegicus with 36 samples.

Results

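The comparison described here set rat alveolar macrophages under overload with G3-1, a titanium dioxide particle, against the same cells under non-overload with G3-1, across all genes. It used 6 of the 36 libraries of the series, 3 per group, chosen by the particle and condition named in their labels. The cells were primary, taken from male F344 rats, cultured over 5 days and exposed to particles for 4 days. G1-1 and Bayertitan, which are also titanium dioxide, and Printex90, a carbon black, were tested in the same way, with a separate control, a non-overload and an overload group for each particle. The sources used here do not state the amount of particle behind each condition. The labels call the 3 libraries of a group biological replicates without saying whether they came from separate animals or cultures. The p-values therefore rest on a spread between libraries of a group that may be technical. That spread was estimated over all 12 groups of the series, not from the 6 libraries compared. Each gene was fitted without and with a covariate for fibroblast transcripts, estimated over all 36 libraries. The covariate was the mean log2(CPM + 0.5) of Col1a1, Col3a1, Dcn, Lum, Pdgfra and Pdgfrb, where CPM is the usual count relative to the scaled total of its library. Col1a2, the listed 7th gene, was not analysed here.

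Alveolar macrophages live on the air side of the lung, where they engulf inhaled particles and deliver them to lysosomes. Poorly soluble particles such as titanium dioxide are not digested there, and overload is the state in which the particle burden exceeds what the cells can handle. Lysosomal hydrolases, the proton pump that acidifies the lysosome, autophagy genes and inflammatory signals are the parts of this machinery most often followed in loaded macrophages.

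The 3 G3-1 non-overload libraries held about 30986200, 32844800 and 32488400 counts, and the 3 overload libraries about 34180100, 34457100 and 43205400, within a range of 26097000 to 43205400 over the series. The labelled cell type was borne out by the sum of its markers: the 25 alveolar macrophage identity genes summed to 9537 to 10381 CPM under non-overload and to 9788 to 11156 CPM under overload. Not every marker was seen: Ca4 was at 0 in all 3 non-overload libraries and in overload replicate 2, where Ear1 was also at 0. Transcripts of other cell types were present too. Col3a1, a collagen gene of fibroblasts, stood at 0, 2.59 and 0.332 CPM in non-overload replicates 1, 2 and 3, and at 35.5, 31.4 and 0.0232 CPM in overload replicates 1, 2 and 3. Overload replicates 1 and 2 therefore carried collagen, overload replicate 3 did not, and the groups overlapped. They belonged to 8 libraries of the series with 13.6 to 109.5 CPM of Col3a1, against at most 2.88 CPM in the other 28. G3-1 control replicates 1 and 2 were also among the 8, at 31.2 and 109.5 CPM.

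The fibroblast covariate followed the collagens. It was 0.31, 1.41 and 0.53 in the non-overload libraries (0.75 ± 0.58, SD, n = 3) and 3.68, 3.05 and 0.27 in the overload libraries (2.33 ± 1.82, SD, n = 3), a difference of 1.58 log2 units. Its genes did not all move alike. Dcn, a matrix proteoglycan, lay between 17.9 and 22.7 CPM in all 9 G3-1 libraries, whereas Lum, another, was at 0 in all 3 non-overload libraries and in 2 of the 3 overload libraries. The 23 epithelial markers changed the other way. Their mean log2(CPM + 0.5) was 3.62, 3.68 and 3.63 under non-overload and 3.53, 3.29 and 3.22 under overload, and the groups did not overlap. Their summed level was 2306, 2646 and 2573 CPM under non-overload and 2437, 1838 and 1848 CPM under overload, where overload replicate 1 lay inside the non-overload range. The surfactant gene Sftpc was at 0 in all 6 libraries. In such bulk RNA, fewer cells of a type and less RNA per cell cannot be told apart.

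**Figure D1:**
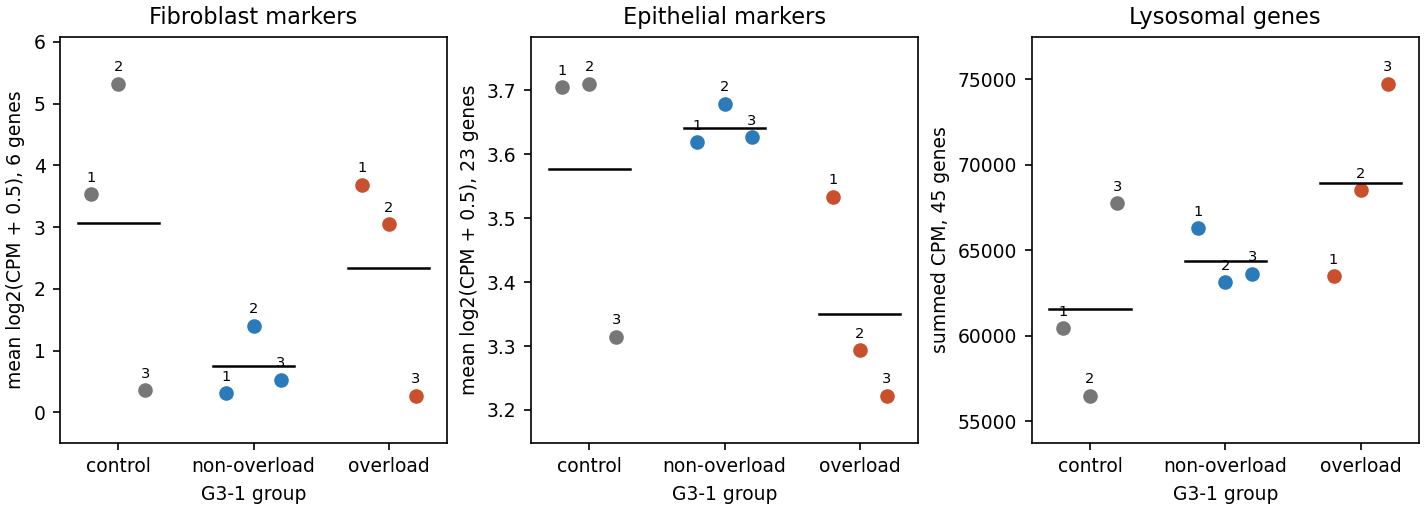
Level of fibroblast covariate genes, epithelial markers and lysosomal genes in each of the 9 G3-1 libraries. Points are libraries with their replicate number, and lines are group means (n = 3). Overload replicates 1 and 2 sit at 3.68 and 3.05 on the fibroblast scale and replicate 3 at 0.27, the epithelial markers are lower in all 3 overload libraries than in any non-overload library, and summed lysosomal CPM overlaps between these groups.

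Without the covariate, overload with G3-1 raised 4 genes and lowered none: Emilin2, Mmp8, Cmklr1 and Itga5. Of 14606 genes tested these 4 were 0.0274%, by edgeR's quasi-likelihood test at a Benjamini-Hochberg adjusted p under 0.05. Whether the 4 share a function was not tested. The 250 bases of genome before the start of each of the 4 are printed because these genes were called in both fits. The sequences are from RefSeq's GRCr8 assembly, gene strand, 5′ to 3′, and all 4 genes were matched. Capitals mark matches on either strand to TGANTCA, an AP-1 site, and to GAGGAA, the core of PU.1 and other ETS sites.
Emilin2, chr9:118667088-118667337, minus strand: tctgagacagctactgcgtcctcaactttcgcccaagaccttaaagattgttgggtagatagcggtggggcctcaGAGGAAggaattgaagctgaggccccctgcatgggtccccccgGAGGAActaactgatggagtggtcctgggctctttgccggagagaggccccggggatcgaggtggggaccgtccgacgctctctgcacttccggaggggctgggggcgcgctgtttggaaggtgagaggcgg
Mmp8, chr8:13008640-13008889, plus strand: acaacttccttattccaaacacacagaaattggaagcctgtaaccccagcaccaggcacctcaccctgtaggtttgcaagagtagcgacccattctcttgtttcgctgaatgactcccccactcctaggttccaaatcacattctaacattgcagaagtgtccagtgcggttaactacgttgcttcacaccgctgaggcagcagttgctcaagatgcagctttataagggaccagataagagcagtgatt
Cmklr1, chr12:48680262-48680511, plus strand: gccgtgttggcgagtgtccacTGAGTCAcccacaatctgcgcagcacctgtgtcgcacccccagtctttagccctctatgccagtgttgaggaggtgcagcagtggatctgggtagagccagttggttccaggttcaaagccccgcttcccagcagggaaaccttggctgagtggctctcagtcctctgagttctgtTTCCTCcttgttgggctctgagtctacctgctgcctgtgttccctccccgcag
Itga5, chr7:136381306-136381555, minus strand: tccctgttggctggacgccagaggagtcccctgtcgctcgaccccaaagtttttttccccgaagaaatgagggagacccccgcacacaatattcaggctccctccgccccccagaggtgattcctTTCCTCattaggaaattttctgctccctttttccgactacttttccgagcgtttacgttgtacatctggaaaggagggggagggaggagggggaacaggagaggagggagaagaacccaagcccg
The ETS core occurred 2 times before Emilin2, 1 time before Cmklr1 and 1 time before Itga5, and 23.2% of the 27457 windows of the same length hold it. The AP-1 site occurred 1 time, before Cmklr1, and 6.36% of windows hold it. Searches for CACGTG, the E-box bound by lysosomal MiT/TFE factors, and for GGGNNTTCC, a form of the NF-kB site, found no match in these windows, and 5.79% and 5.16% of all windows hold them. A match describes the letters only.

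Emilin2 encodes an elastin-interface glycoprotein of the extracellular matrix. It stood at 57.9, 55.2 and 58.4 CPM in the non-overload libraries and at 68.8, 71.3 and 76.1 CPM in the overload libraries. Every overload library lay above every non-overload library, and above the 3 controls at 52.1, 55.2 and 60.2 CPM. The log2 fold change was 0.33 (SE 0.0514, adjusted p = 0.00741 by edgeR's quasi-likelihood test). Mmp8, the collagenase best known from neutrophil granules, stood at 11.3, 11.3 and 13.3 CPM under non-overload and at 15.1, 21.4 and 20.5 CPM under overload. The groups did not overlap, replicate 1 was the lowest of the overload libraries, and the controls lay at 10.8 to 11.5 CPM. Its log2 fold change was 0.66 (SE 0.108, adjusted p = 0.00871). The neutrophil markers, which include Mmp8, summed to 189.6 to 209.9 CPM under non-overload and to 212 to 235 CPM under overload. Of the 7 neutrophil markers tested, 6 were positive without the covariate. With it 2 rose, Mmp8 and Cxcr1, against 2.58% of all genes upward. Mpo was at 0 in 5 of the 6 libraries, and Elane in 4 of the 6. The part of neutrophils in the Mmp8 value was not tested.

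Cmklr1 encodes the receptor of chemerin, which draws macrophages and dendritic cells. It stood at 12.15, 12.02 and 11.57 CPM under non-overload and at 15.3, 15.6 and 14.7 CPM under overload, a log2 fold change of 0.35 (SE 0.0638, adjusted p = 0.0345). Itga5, the alpha chain of the fibronectin receptor, stood at 79.9, 82.2 and 79.0 CPM under non-overload and at 93.9, 93.4 and 94.9 CPM under overload, a log2 fold change of 0.23 (SE 0.0421, adjusted p = 0.0345). In both genes the overload libraries lay within a narrow band above all non-overload and control libraries. Cxcl2, a chemokine that attracts neutrophils, came next at 16.2, 12.8 and 12.9 CPM against 18.4, 25.4 and 19.3 CPM. Its groups did not overlap, but its log2 fold change of 0.59 (SE 0.115) missed the threshold at an adjusted p of 0.0538.

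**Figure D2:**
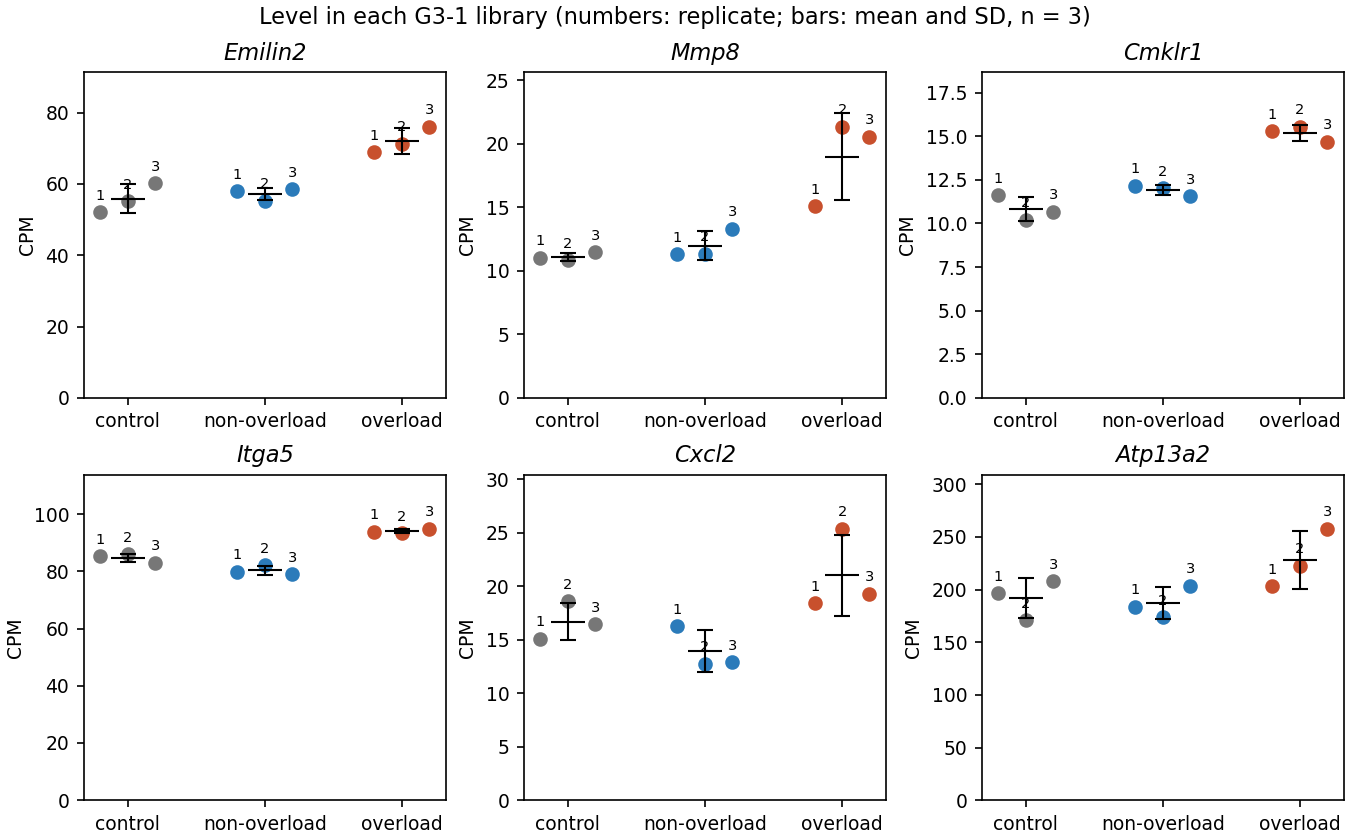
CPM of 6 genes in the 9 G3-1 libraries, with replicate numbers and the group mean and SD (n = 3). Emilin2, Mmp8, Cmklr1 and Itga5 passed the test without the covariate and their overload libraries lie above all others, whereas Cxcl2 and Atp13a2, a lysosomal pump, did not pass it there. Each vertical axis starts at 0 and has its own scale.

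The count of 4 rested on single libraries. It was 2 without non-overload replicate 1, 0 without non-overload replicate 2, 2 without non-overload replicate 3, 1 without overload replicate 2 and 0 without overload replicate 3. At an unadjusted p under 0.05, 700 genes were below that level without non-overload replicate 2 and 566 without overload replicate 3, against 1038 in all libraries. Emilin2 kept its call in 4 of the 6 fits that left out a library and lost it without non-overload replicate 2 or overload replicate 3, at log2 fold changes of 0.29 to 0.37. Mmp8 kept it in 2 of 6, at 0.57 to 0.81, and lost it without non-overload replicates 1 or 2 or overload replicates 2 or 3. Cmklr1 (0.33 to 0.38) and Itga5 (0.22 to 0.25) lost their call in each of the 6, with an unchanged direction. Without overload replicates 1 and 2, alone or with the rest of the 8 collagen-rich libraries (chosen after seeing the data), 1 overload library remained. The spread within that group and the balance of upward and downward genes could not be judged in such fits. Without overload replicates 1 and 2, Emilin2 was at 0.41, Mmp8 at 0.78, Cmklr1 at 0.30 and Itga5 at 0.24.

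Over all 14606 genes, 1651, or 11.3%, had 3 overload libraries all above or all below the 3 non-overload libraries, the 4 called genes included. Of the genes not called, those with the lowest unadjusted p in the upward direction included Il1rl2, a subunit of the interleukin-36 receptor, at a log2 fold change of 0.31 (adjusted p = 0.150). Il20rb, a receptor subunit for interleukin-20 family cytokines, was at 0.36, and Atp8a2, a phospholipid flippase, at 0.52 (both adjusted p = 0.376). In the downward direction they included Itgb6, an integrin chain of epithelium, at -0.46 (adjusted p = 0.399), and Dusp4, a phosphatase that restrains MAP kinases, at -0.45 (adjusted p = 0.376). Hsd17b2, which oxidises steroids, was at -1.66 (adjusted p = 0.376).

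With the fibroblast covariate in the fit, 981 genes passed the same test, 6.72% of those tested. Of these, 377 rose (2.58%) and 604 fell (4.14%), including the 4 called without it. Every one of the 981 had the same sign in both fits. The median size of their log2 fold change was 0.39 with the covariate and 0.26 without it, and 1 of the genes that rose and 66 of those that fell changed at least 2-fold. The common biological coefficient of variation was 0.103 without the covariate and 0.0759 with it. The slope on the covariate itself was called for 4612 genes, 31.6% of those tested. Among the 981 the slope had the opposite sign to the fold change in 972, and it was called in 870. Overload libraries 1 and 2 had the higher covariate, so such a slope enlarges the fitted difference between the groups. In 441 of the 981 genes, or 45%, the 3 overload and 3 non-overload libraries did not overlap, against 11.3% of all genes. These genes were chosen by the test of the same difference, so this share is a description.

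**Figure D3:**
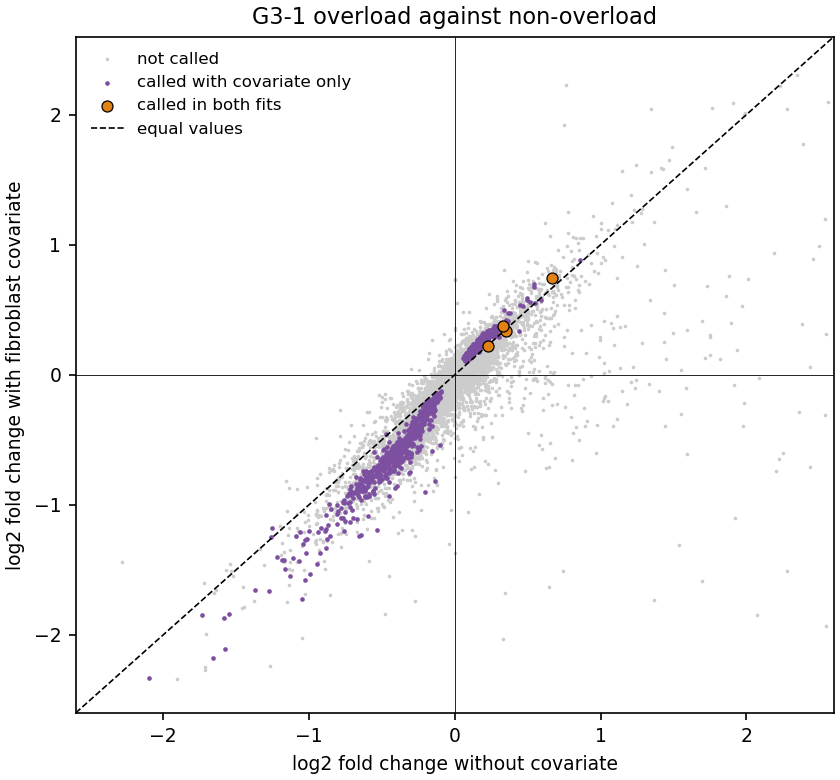
Log2 fold change of overload against non-overload for each gene, without the covariate (horizontal) and with it (vertical). Grey points were not called, purple points were called with the covariate only (977 genes), and orange points in both fits (4 genes). Of the purple points, 970 lie farther from 0 with the covariate than without it and 7 lie nearer, the dashed line marks equal values, and 92 genes with a value beyond 2.6 in size are outside the axes, 9 of them called with the covariate.

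The count of 981 also rested on single libraries. It was 128 without non-overload replicate 2, 36 without non-overload replicate 3, 36 without overload replicate 2 and 6 without overload replicate 3, the overload library with little collagen. It was 844 without non-overload replicate 1 and 1226 without overload replicate 1. Leaving out both collagen-rich overload libraries was an alternative chosen after seeing the data. It left 1 overload library, so no conclusion is drawn from its number of calls. In that fit the median log2 fold change was 0.17 for the 45 lysosomal genes and -0.50 for the 20 epithelial markers. In the 6 libraries of the comparison alone, 316 genes passed. Of 86 named genes called with the covariate, 5 kept the call in each fit that left out a library: Emilin2, Mmp8, Hsd17b2, Eya2 and Traf3ip2. The call was lost in 81 of them without overload replicate 3, in 68 without overload replicate 2, in 68 without non-overload replicate 3 and in 56 without non-overload replicate 2. It was lost in 14 without non-overload replicate 1 and in 6 without overload replicate 1.

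Of 45 lysosomal genes, 21 rose and none fell with the covariate, against 2.58% of all genes upward, and all 45 had a positive log2 fold change with a median of 0.17 (all genes: -0.0018). Without the covariate 0 of the 45 were called, 42 were positive and the median was 0.09 (all genes: -0.0014). Ctsd, the aspartic protease cathepsin D, stood at 10292, 9871 and 10292 CPM under non-overload and at 10485, 10976 and 12498 CPM under overload. Its groups did not overlap, with overload replicate 3 the highest. Its log2 fold change was 0.16 (adjusted p = 0.695) without the covariate and 0.22 (SE 0.0442, adjusted p = 0.0106) with it, with a slope of -0.04 per unit of the covariate. Lamp1, a membrane protein of lysosomes, stood at 1424, 1386 and 1390.5 CPM against 1398, 1488 and 1673 CPM. Here overload replicate 1 lay inside the non-overload range, and the covariate fit gave 0.19 (SE 0.0409, adjusted p = 0.0144). Naglu, a heparan sulphate hydrolase, rose by 0.23, Laptm5, a lysosomal membrane protein of leukocytes, by 0.18, and Hexa and Ctsz, a hexosaminidase and a cathepsin, by 0.25 each. The lysosomal count was 5 without non-overload replicate 2, 1 without non-overload replicate 3, 1 without overload replicate 2 and 0 without overload replicate 3, while the median lay between 0.14 and 0.19 over the 6 fits that left out a library. Without the covariate, this median was 0.03 without overload replicate 3, with 35 genes positive, and 0.14 without overload replicate 1, with 45 positive.

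In the vacuolar ATPase, the proton pump of the lysosome, 2 of 18 genes rose, Atp6v0c (0.19) and Atp6v0a1 (0.17), and the median was 0.12. Of 26 autophagy genes 6 rose and 1 fell, with a median of 0.10. The shares over all genes were 2.58% upward and 4.14% downward. They included Atg7 (0.21), an enzyme of autophagosome formation, Tecpr1 (0.19) and Rragd, a Rag GTPase that relays lysosomal nutrient signals. Rragd stood at 32.0, 29.0 and 29.3 CPM under non-overload and at 31.9, 33.6 and 39.4 CPM under overload, overlapping through overload replicate 1, and rose by 0.34 (SE 0.0653, adjusted p = 0.00986). Atg9b, a lipid scramblase of autophagosome formation, fell by 0.79 on the log2 scale. Atp13a2, a lysosomal polyamine transporter, had among the lowest p-values of the genes called with the covariate alone. It stood at 184, 174 and 203 CPM under non-overload and at 203, 223 and 258 CPM under overload. Only the lowest overload value touched the highest non-overload value, and the log2 fold change was 0.36 (SE 0.0564, adjusted p = 0.00244). Its call was lost without overload replicate 3, as were those of Ctsd and Ncf1, and held in the other 5 fits that left out a library.

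Of 22 genes of alveolar macrophage identity, 4 rose with the covariate and none fell, against 2.58% of all genes upward, with a median of 0.18. The count was 1 without non-overload replicate 2 and 0 without non-overload replicate 3, overload replicate 2 or overload replicate 3. These were Abcg1 (0.23), a cholesterol exporter, Mrc1 (0.20), the mannose receptor, Csf2ra (0.24), a chain of the GM-CSF receptor, and Krt79 (0.28). Mrc1 stood at 1048, 964 and 1048 CPM under non-overload and at 994, 1137 and 1173 CPM under overload, so the groups overlapped through overload replicate 1. Ncf1, a cytosolic subunit of the phagocyte NADPH oxidase, stood at 1592, 1509 and 1668 CPM against 1651, 1872 and 2075 CPM and rose by 0.31 (SE 0.0570, adjusted p = 0.00786). Among lipid genes Plin2, a coat protein of lipid droplets, rose by 0.28, and Scarb1, a scavenger receptor for lipoproteins, by 0.32. Fads1, a fatty acid desaturase, stood at 17.9, 17.1 and 18.2 CPM against 22.2, 24.6 and 28.1 CPM without overlap, and rose by 0.58 (SE 0.122, adjusted p = 0.0139). Dgat2, which makes triglyceride, rose by 0.20, whereas Fasn, the fatty acid synthase, and Elovl7, an elongase, fell by 0.27 and 0.89. Of 22 genes of fatty acid synthesis and desaturation 2 rose and 2 fell, and of 18 lipid handling genes 2 rose. Over all genes 2.58% rose and 4.14% fell. None of 26 genes of cholesterol synthesis was called.

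Mefv, which encodes the inflammasome sensor pyrin, stood at 0.832, 0.813 and 0.846 CPM under non-overload and at 1.529, 1.501 and 1.507 CPM under overload. The groups did not overlap, which the rule for naming the largest changes required. In edgeR's test the log2 fold change was 0.86 without the covariate (SE 0.251, adjusted p = 0.535). It was 0.88 with the covariate (SE 0.260, adjusted p = 0.0399). This call was lost in each of the 6 fits that left out a library. Of 24 chemokines, Cxcl2 (0.58) and Ccl22 (0.70) rose and Cxcl17, a mucosal chemokine, fell by 1.65, against 2.58% of all genes upward and 4.14% downward. Of 17 NF-kB genes 2 rose, the inhibitor gene Nfkbia (0.25) and the adhesion gene Icam1 (0.22), against 2.58% of all genes upward. The list median was 0.12 (all genes: -0.0018), and each call held in 1 of the 6 fits that left out a library. Nfkbia stood at 70.3, 74.0 and 79.5 CPM against 80.6, 91.9 and 90.5 CPM, without overlap. The oxidant defence genes Hmox1, a heme oxygenase, and Sod2, a mitochondrial superoxide dismutase (0.28), rose. Hmox1 stood at 862, 809.8 and 842 CPM against 865, 928 and 1039.6 CPM, without overlap by a narrow margin, and rose by 0.23 (SE 0.0543, adjusted p = 0.0165). So did Fth1, the ferritin heavy chain (0.27), Slc11a1, a phagosomal metal transporter (0.22), and Blvrb, a biliverdin reductase (0.19), and with Hmox1 these were 4 of 25 metal and heme genes, where 2.58% of all genes rose. Adora2a, an adenosine receptor, stood at 1.92, 2.02 and 1.99 CPM against 2.80, 2.74 and 3.15 CPM, without overlap, and rose by 0.55 (SE 0.156, adjusted p = 0.0335). Mmp14, a membrane metalloprotease, stood at 327, 333 and 339.6 CPM against 359, 388 and 415 CPM, also without overlap, and rose by 0.25 (SE 0.0530, adjusted p = 0.0144).

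**Figure D4:**
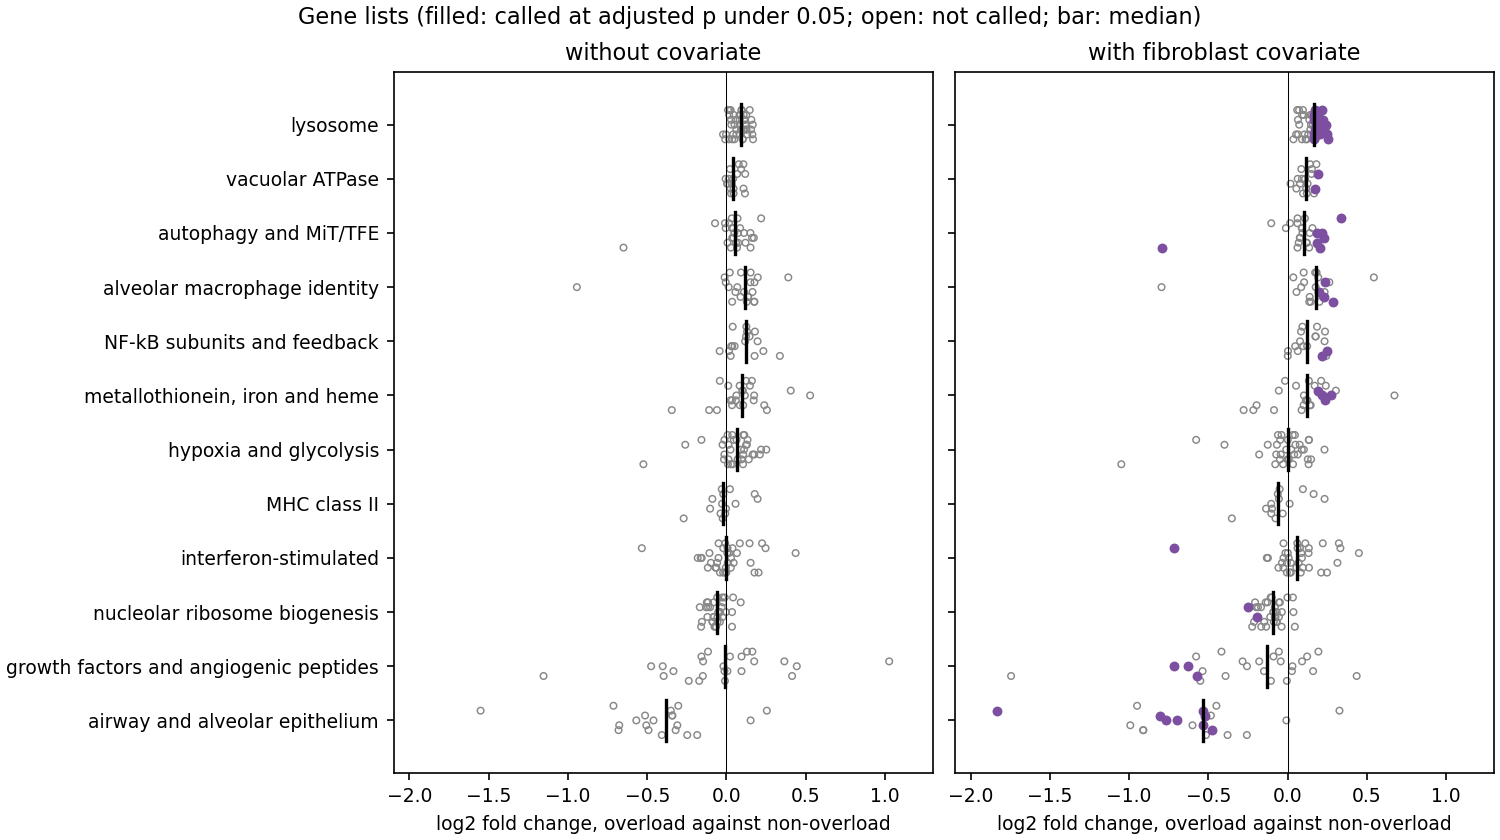
Log2 fold change of the tested members of 12 gene lists, without the covariate (left) and with it (right). Filled points were called, open points were not, and bars are list medians. None of the members shown was called without the covariate, and with it 21 of 45 lysosomal genes lie to the right as filled points and 8 of 20 epithelial genes to the left; 1 of the 317 points falls outside the axes.

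Epithelial transcripts were among the genes that fell. Of 20 epithelial markers tested, 8 fell and none rose with the covariate, against 4.14% of all genes downward. Their median was -0.53 with the covariate and -0.38 without it, where none was called and 18 of the 20 were negative or zero. Scgb1a1, the secretoglobin of club cells, stood at 1.247, 1.597 and 3.868 CPM under non-overload and at 1.18, 0.462 and 0.649 CPM under overload. The groups did not overlap, by a narrow margin, and it fell by 1.84 on the log2 scale (SE 0.480, adjusted p = 0.0235). Krt14, a keratin of basal cells, stood at 192, 241 and 229 CPM against 174, 145 and 128 CPM and fell by 0.77 (SE 0.170, adjusted p = 0.0154). Epcam, an epithelial adhesion gene, stood at 73.2, 96.4 and 88.4 CPM against 80.3, 58.2 and 49.3 CPM, so overload replicate 1 lay inside the non-overload range. It fell by 0.70 with the covariate (SE 0.176, adjusted p = 0.0206). Elf3, a transcription factor of epithelium, fell by 0.80. The epithelial count was 6 without non-overload replicate 1, 1 without non-overload replicate 2 and 0 without non-overload replicate 3, overload replicate 2 or overload replicate 3.

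Hsd17b2 stood at 0.864, 1.66 and 1.99 CPM under non-overload and at 0.779, 0.433 and 0.232 CPM under overload and fell by 2.18 (SE 0.318, adjusted p = 0.000949), a call that held in each of the 6 fits that left out a library. Upk3bl1, a uroplakin relative, stood at 6.97, 9.10 and 8.64 CPM against 5.25, 3.95 and 2.64 CPM and fell by 1.44 (SE 0.235, adjusted p = 0.00386). In both genes overload replicate 3 was the lowest of all 9 G3-1 libraries. Eya2, a transcriptional coactivator, fell by 0.89, Sytl2, a vesicle-traffic protein, by 0.78 and Traf3ip2, an adaptor of interleukin-17 receptors, by 0.68. Il33, an alarmin stored in the nuclei of barrier cells, stood at 408, 450 and 448 CPM against 384, 321 and 266 CPM and fell by 0.58 (SE 0.139, adjusted p = 0.0182). The growth factors Tgfa and Ereg, both ligands of the EGF receptor, fell by 0.57 and 0.72, and Pdgfc by 0.63. Of 25 p53 targets Perp (0.52), Aen (0.22) and Phlda3 (0.37) fell, against 4.14% of all genes. The call of Phlda3 was lost in each of the 6 fits that left out a library. Ahr, the aryl hydrocarbon receptor, stood at 19.2, 21.4 and 21.8 CPM against 17.6, 16.7 and 14.2 CPM and fell by 0.55, and the nucleolar genes Npm1 and Ncl fell by 0.25 and 0.20.

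Several groups held no call with the covariate, where 6.72% of all genes passed. In lists this small that share gives few calls, so an absence of calls says little about these groups. None of 14 MHC class II genes (median -0.06), 34 hypoxia and glycolysis genes (0.00), 35 proliferation genes (-0.15), 37 proteasome genes (-0.01) or 68 cytosolic ribosomal protein genes (-0.04) passed. The 13 mitochondrially encoded genes were all negative, with a median of -0.27, and none passed. Of 36 interferon-stimulated genes 1 fell, Isg20, a nuclease that acts on viral RNA (-0.72), against 4.14% of all genes downward.

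Because epithelial markers differed between the groups, the fit was repeated with their mean log2(CPM + 0.5) as a covariate. With the fibroblast and the epithelial covariate together, 1 gene passed: Emilin2, at a log2 fold change of 0.34 (SE 0.0585, adjusted p = 0.0499). Of the 981 genes, 978 kept their sign, their median size fell from 0.39 to 0.15, and their median SE was 0.104 in both fits. Among them 252 had an unadjusted p under 0.05. No lysosomal gene was called, 32 of 45 were positive and their median was 0.06, and the median of the 22 identity genes was 0.08. The epithelial genes are the covariate in this fit and give no test of themselves there. Ctsd was at 0.17, Atp13a2 at 0.31, Mmp8 at 0.59 and Hsd17b2 at -1.60, none of them called. With the epithelial covariate in place of the fibroblast one, 115 genes passed, 100 upward and 15 downward, and 8 of these were among the 981. Emilin2 (0.28), Mmp8 (0.52), Cmklr1 (0.35) and Itga5 (0.21) were called there, and the lysosomal median was -0.03 with 0 called.

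The same comparison in the other 3 particles gave 3315 calls for G1-1, 513 for Printex90 and 0 for Bayertitan, for which 553 genes had an unadjusted p under 0.05 in edgeR's test. The G3-1 libraries are shared with none of these, so the responses could be set against each other. The difference between the G3-1 response and the mean response of the other 3 particles was called for 92 genes, 0.63% of those tested, 90 of them higher in G3-1 (0.616%) and 2 lower (0.0137%). The split depended on the fit: 446 were higher and 140 lower with the fibroblast covariate, and 162 and 20 by DESeq2. The count was 52 without G3-1 non-overload replicate 1, 39 without non-overload replicate 2, 46 without non-overload replicate 3, 60 without overload replicate 1 and 33 without overload replicate 3.

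Antigen presentation genes were among those that differed. Of 14 MHC class II genes, 7 were higher in the G3-1 response, against that 0.616% of all genes, with a median difference of 0.53. In G3-1 itself the median was -0.02 and none passed, whereas in the mean of the other 3 particles 11 of the 14 fell, with a median of -0.54. Cd74, the invariant chain, stood at 315, 325 and 311 CPM under G3-1 non-overload and at 341, 314 and 284 CPM under G3-1 overload, with full overlap. Its log2 fold change was -0.02 (SE 0.0948) in G3-1, -0.08 in Bayertitan, -1.10 in G1-1 and -1.04 in Printex90, and the difference was 0.72 (SE 0.110, adjusted p = 0.00104). RT1-DMa, a chain of the peptide-loading molecule, was at 0.18 in G3-1, 0.04 in Bayertitan, -0.89 in G1-1 and -0.92 in Printex90, with a difference of 0.77 (SE 0.115, adjusted p = 0.00104). Rat MHC class II genes can share reads with near-identical copies, so their single values are uncertain. In both genes the value of Bayertitan lay nearer to G3-1 than to the other particles.

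Several genes outside that list followed the same order. Stab1, a scavenger receptor, stood at 87.2, 78.0 and 62.3 CPM under G3-1 non-overload and at 69.7, 97.2 and 81.0 CPM under overload, overlapping groups with a log2 fold change of 0.12. It was at -1.11 in G1-1 and -1.99 in Printex90, and the difference was 1.14 (SE 0.188, adjusted p = 0.00286). Alox5, the lipoxygenase that starts leukotriene synthesis, differed by 0.79 (SE 0.108, adjusted p = 0.000646), from -0.10 in G3-1 and -0.27 in Bayertitan to -1.12 in G1-1 and -1.29 in Printex90. Ahrr, a repressor of the aryl hydrocarbon receptor, differed by 1.22, Cadm3, an adhesion molecule, by 1.27, Fcrl2, an Fc receptor-like gene, by 0.91, and C1qb, a complement chain, by 0.84. Bayertitan lay beside G3-1 in Fcrl2 (-0.39 against -0.38) and in C1qb (-0.14 against -0.09). The 2 genes lower in the G3-1 response were Iqsec3 and Sqor. Iqsec3, an exchange factor for ARF GTPases, stood at 3.49, 3.55 and 3.75 CPM against 2.48, 2.68 and 2.18 CPM in G3-1 and differed by -0.65 (SE 0.157, adjusted p = 0.0472). Sqor, a mitochondrial sulphide oxidase, differed by -0.24, from -0.12 in G3-1 and -0.06 in Bayertitan to 0.22 in G1-1 and in Printex90. Leaving out 1 G3-1 library kept the call of Stab1 each time and ended those of C1qb and Iqsec3 each time. Ahrr lost its call without non-overload replicate 2 or overload replicate 2, Cadm3 without either of these, non-overload replicate 3 or overload replicate 1, and Fcrl2 without non-overload replicate 3 or overload replicates 2 or 3. Sqor kept its call only without non-overload replicate 1.

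**Figure D5:**
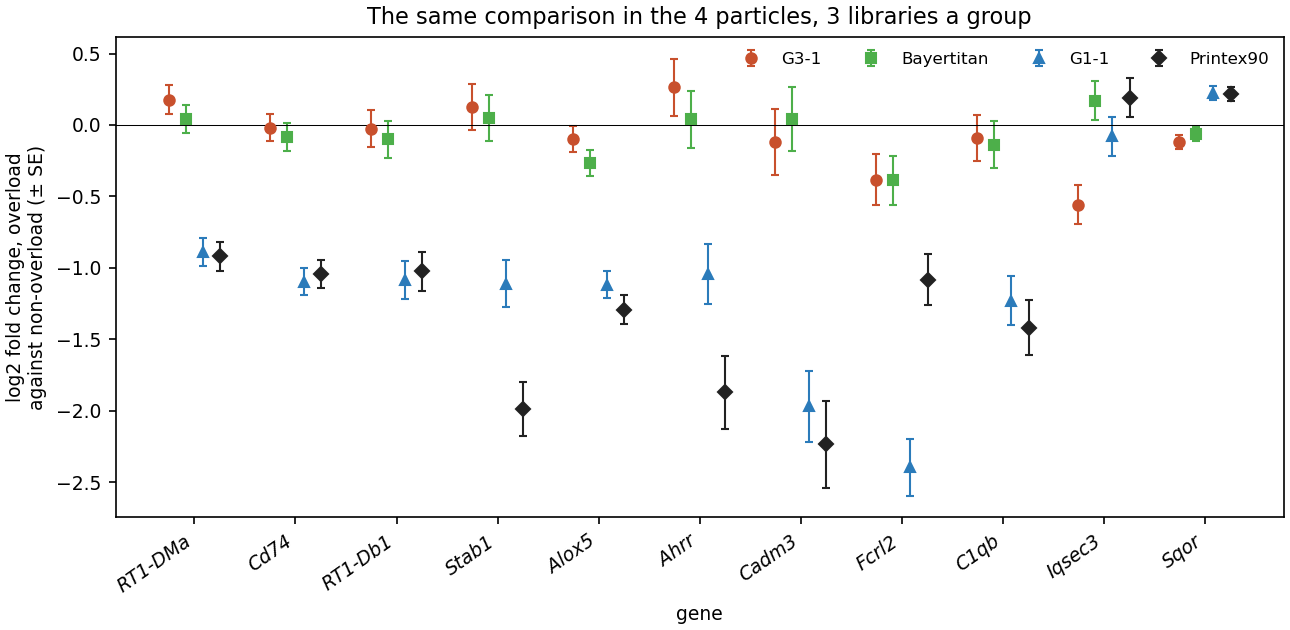
Log2 fold change of overload against non-overload, with its SE, in the 4 particles for 11 genes called for the difference between G3-1 and the mean of the others. G3-1 and Bayertitan lie near 0 for the MHC class II genes and for Stab1, Ahrr and Cadm3, where G1-1 and Printex90 lie at -0.89 or lower.

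Genes that overload with the other particles changed were also read in G3-1. The mean response of the other 3 particles was called in 16.3% of genes tested, 7.67% upward and 8.62% downward. Of the 1121 genes that rose there, 82.8% were positive in G3-1 without the covariate, against 49.3% of all genes. Their median log2 fold change was 0.06 in G3-1 and 0.14 in the mean of the others, and 3 of them were among the 4 called. Of the 1259 that fell there, 38.9% were positive in G3-1, with a median of -0.02 against -0.19. With the covariate, 86% of the 1121 and 44.9% of the 1259 were positive in G3-1, against 49.6% of all genes. Of the 1121, 164 rose in G3-1 and none fell, and of the 1259, 41 fell and 10 rose. Over all genes 2.58% rose and 4.14% fell, so the 41 of 1259 do not exceed the downward share.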

How the data were processed

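RNA of primary rat alveolar macrophages was sequenced in 36 libraries of 12 groups, and 6 libraries entered the comparison. Expected counts of 23487 genes came as 1 table from the authors, and 30.5% of its values were not whole. The submitters' processing notes name Salmon, FastQC and MultiQC, without versions, and the build Rnor_6.0. No row lacked a gene name and no sample column was left unused. Libraries were made after depletion of ribosomal RNA, per the labels' protocols. Whether counting used strand is not stated, so overlapping, antisense and near-identical genes are uncertain.

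The expected counts were rounded and tested with edgeR 4.0.16 in R 4.3.3: TMM scaling, filterByExpr (minimum count 10, minimum total 15) and quasi-likelihood models of the 36 libraries, a coefficient for each group, which left 24 residual degrees of freedom, 23 with the covariate and 22 with both. All groups entered because 3 against 3 libraries give a poor estimate of spread. Calls used a Benjamini-Hochberg adjusted p under 0.05 over all 14606 genes. CPM are on TMM-scaled library sizes, and the pseudocount was 0.5. DESeq2 1.42.0, other scalings, filters, covariates and left-out libraries were alternatives, and some, named as such, were chosen after seeing the data. The code was tested on simulated counts. No replicate pair was 1 library sequenced again: chi-square per degree of freedom was 5.12 to 7.26 between non-overload and 17.7 to 35.4 between overload libraries.

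The comparison, the gene lists and the covariate were chosen with earlier results of these data known. Named genes were, among those with a RefSeq symbol, a mean of 1 CPM or more in 1 group and, for the first kinds, no overlap: the 10 largest called changes each way without the covariate and 6 with it, filled by lowest p where fewer were called; the 5 of lowest p each way called in 1 fit only; up to 4 called members of each list by p; the 5 largest differences between particles each way; and the covariate genes. For genes named by a rule that required no overlap, the lack of overlap is a description and not support. Hexa, Ctsz, Cd74, RT1-DMa and Alox5 were chosen after their values were seen. The promoter windows come from a RefSeq table of the GRCr8 assembly, and no coordinates of the authors' build are given.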

Additional observations from a re-analysis of the deposited data

Results flagged for a closer look

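The G3-1 response to overload differed from the mean response of the other 3 particles in 92 genes, by the test of that difference in edgeR's fit of all libraries. The genes named among them were higher in the G3-1 response by 1.27 for Cadm3, 1.22 for Ahrr, 1.14 for Stab1, 0.91 for Fcrl2 and 0.84 for C1qb on the log2 scale. They were lower for Iqsec3 at -0.65 and Sqor at -0.24. In all of these genes but Iqsec3, Bayertitan lay nearer to G3-1 than G1-1 or Printex90 did. Each was singled out because 2 sets of libraries gave different effects for the same contrast. In 89 of the 92 the mean of the other particles had fallen, and the causes were not tested.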

How the results depend on the processing

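Without the covariate, 4 genes were called; DESeq2's size factors gave 4 as well, no filter on low counts 2, DESeq2 8, the 9 G3-1 libraries alone 0 (804 at an unadjusted p under 0.05) and the 6 libraries alone 0 (963). Of the 8 by DESeq2, Fam131a, MGC94199.1 and Aldh18a1 had log2 fold changes of 22.9, 23.5 and 26.6, each at 0 CPM in most libraries. Leaving out 1 library gave 0 to 3 calls, leaving out overload replicates 1 and 2 together 12, and leaving out the 8 collagen-rich libraries, chosen after seeing the data, 318, with 3 of the 4 among them. With the covariate, 981 were called. Leaving out 1 library gave 6 to 1226, the 6 libraries alone 316, leaving out overload replicates 1 and 2 161, the epithelial covariate 115 and both covariates 1; DESeq2's 1372 and 6 other settings lay within 1.5 times. For the difference between particles (92), leaving out 1 library gave 33 to 72, DESeq2 182 and the covariate 586. The cause of these shifts was not tested. Leaving out overload replicates 1 and 2, alone or with the rest of the 8 collagen-rich libraries, left 1 overload library. The spread in that group could not be judged there. The counts from such fits, and the 3 of the 4, therefore do not show whether calls held.

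Deviations of same-numbered overload and non-overload libraries correlated at -0.25, -0.00052 and 0.05, which shows no clear pairing of the groups compared. Those of overload and control libraries correlated at 0.22, 0.10 and 0.54, and those of non-overload and control libraries at -0.11, 0.24 and 0.07. The controls are outside the contrast. With 3 libraries a group, these values cannot settle whether replicate numbers mark a shared source. With the replicate number as a block, 5 genes were called without the covariate (3 of the 4, with Cmklr1 at an adjusted p of 0.0522), 773 with it (694 of the 981) and 117 for the difference (85 of the 92).

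The direction turned in 21 cases. Dcn (-0.05 in all libraries) was at -0.14 to 0.02 (0.021) with 1 library left out, above 0 without non-overload replicate 2. Without overload replicates 1 and 2, Col1a1 was at -1.66, Col3a1 at -5.20, Pdgfra at -0.62 and Pdgfrb at -2.36, and without the 8 libraries at -1.65, -5.19, -0.62 and -2.36. With the epithelial covariate in place of the fibroblast one, Abcg1 was at -0.0019, Mrc1 at -0.023, Laptm5 at -0.0043, Fasn at 0.0030, Scarb1 at -0.0080, Adamts1 at 0.17, Mmp13 at 0.59, Slc11a1 at -0.028, Blvrb at -0.021, Hspb8 at 0.18, Phlda3 at 0.037 and Lrrc25 at -0.020. Of the other values of named genes, 1290 kept their direction and side of the threshold, 661 kept the direction but lost the call and 10 gained it. These totals include the fits that left 1 overload library, where the side of the threshold cannot be judged. With 3 libraries a group and 30986200 to 43205400 counts, changes as small as a gene's SE were not detectable.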
